A study of Mus musculus with 54 samples.

Results

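The inflammatory output of 3T3-L1 cells was followed through 10 genes: the cytokine Il6, the chemokines Cxcl1, Cxcl5, Cxcl12, Ccl2 and Ccl7, the adhesion molecules Vcam1 and Icam1, and the inhibitors Nfkbia and Il1rn. The genes were chosen by name, with earlier results of these data known. Every array probe whose annotated symbol was one of them was taken. This gave 12 of the 21020 probes with a symbol and 10 of the 16637 genes. Cxcl12 and Vcam1 had 2 probes each. All 10 genes passed the filter on dim signals and were among the 12792 genes tested, Icam1 only just. 3T3-L1 is an established clonal mouse embryonic fibroblast line of preadipocytes that turns into fat-storing adipocytes in culture. The series covers 18 times, the first at 0 h and the last at 288 h, and 3 arms: untreated cells undergoing normal differentiation, cells in 0.5% DMSO (the solvent), and cells in 2 µM prieurianin, a limonoid (a class of plant triterpenoids). Each arm and time had 1 array, 54 in all, and the labels do not say whether the times were separate cultures or when the treated arms received the differentiation stimulus.

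Preadipocytes are fibroblast-like cells, and like other fibroblasts they can secrete cytokines and chemokines. Many of these genes are switched on by NF-kB, a transcription factor held in the cytoplasm by IkB proteins until signals from IL-1, TNF or Toll-like receptors release it. In fat tissue, the CCL2 and CCL7 proteins attract monocytes, CXCL1 and CXCL5 attract neutrophils, and VCAM1 and ICAM1 hold leukocytes at the cell surface. IL-6 acts through a receptor that shares the gp130 subunit with related cytokines. Nfkbia encodes IkB-alpha and is itself an NF-kB target, so its mRNA is often read as a gauge of NF-kB activity, and Il1rn encodes the antagonist of the IL-1 receptor.

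The promoter letters are shown for the members whose sequence held an NF-kB motif. A RefSeq promoter table of build GRCm38.p6 held 6 of the 10 genes with 8 start sites (Il6, Cxcl1, Cxcl12, Icam1, Nfkbia and Il1rn, the last with 3). The 250 bases before each start were searched on both strands. The kappaB consensus was found in Il6, Cxcl1 and Nfkbia, and 7.25% of the 32851 promoters in the table hold it. Below are the 120 bases that end at the base before the start site, 5′ to 3′ in the direction of the gene, with the kappaB match in capitals. The Il6 stretch lies at chr5:30012994-30013113 on the plus strand, the Cxcl1 stretch at chr5:90891125-90891244 on the plus strand, and the Nfkbia stretch at chr12:55492648-55492767 on the minus strand.
Il6: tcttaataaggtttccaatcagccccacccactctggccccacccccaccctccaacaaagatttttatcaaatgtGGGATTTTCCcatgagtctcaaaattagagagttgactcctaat
Cxcl1: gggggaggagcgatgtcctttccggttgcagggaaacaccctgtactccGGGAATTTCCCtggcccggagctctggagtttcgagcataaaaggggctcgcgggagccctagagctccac
Nfkbia: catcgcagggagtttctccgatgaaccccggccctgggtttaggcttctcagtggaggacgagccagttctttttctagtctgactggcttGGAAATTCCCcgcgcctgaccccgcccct

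The match stood at bases -44 to -35 from the start in Il6 and, on the opposite strand, at -29 to -20 in Nfkbia. In Cxcl1 it read on both strands, 1 base apart, over bases -71 to -61. An AP-1 element (TGANTCA) stood at -249 to -243 in Il6 and at -141 to -135 before 1 Il1rn start, and 6.75% of all promoters held one. Il6 also held a C/EBP element (TTGCNNAA) at -128 to -121 and a CCAAT box at -106 to -102. These occurred in 9.56% and 33.8% of promoters. The TATA box letters TATAAA, held by 12.4% of promoters, were in none of the 8 stretches. Each match is a match of letters, and factor binding was not measured.

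All values are single-colour array intensities, quantile normalised between arrays; log2 values are log2(normalised intensity + 16), which understates changes of dim genes. Median deposited intensity per array ran from 88 to 313, and 93 to 176 probes per array were at the scanner's ceiling (saturated). Cxcl1 was saturated on 22 arrays, Cxcl5 on 15 and Ccl2 on 7, mostly at 0 to 3 h, so their early levels are lower limits. Icam1 was dim, with normalised intensities of 17 to 95. The cell type labels were checked against marker lists. Over 10 adipocyte markers the mean log2 value was 7.96 to 8.42 at 0 to 3 h. It was 12.75 to 13.53 at 96 to 288 h in the 2 control arms. The mean of 12 preadipocyte and fibroblast markers was 13.34 to 14.41. Of these, 5 were called lower late than early in untreated cells (list median -0.44), and several, such as S100a4 at a mean log2 of 15.93, lay near the ceiling, where changes are compressed. The mean of 4 endothelial markers was 7.14 to 7.91. In prieurianin the adipocyte mean was 11.63, 11.86, 10.30 and 10.03 at 96, 144, 240 and 288 h, but 13.68 at 192 h, the highest of all 54 arrays. The prieurianin array at 192 h thus stood apart from its own arm. Late values of the tested probes that move with it are also given without the 192 h arrays; second probes were fitted with all times. In such bulk RNA, fewer expressing cells and less RNA per cell cannot be told apart.

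Il6 fell in all 3 arms, and was the only member more than 2-fold higher at 1 h than at 0 h in every arm. In untreated cells its normalised intensities at 0, 0.5, 1, 3, 24, 96 and 144 h were 2282, 12175, 14816, 4465, 1334, 112 and 54. The same times read 2367, 8573, 15259, 6682, 2189, 110 and 96 in DMSO. They read 2243, 16083, 14198, 7259, 2486, 182 and 260 in prieurianin. The 3 arms began at similar levels, peaked within the first hour (at 0.5 h in prieurianin and at 1 h in the controls) and reached their low at 96 to 192 h. At 1 h the level was 6.45, 6.41 and 6.28 times that at 0 h in untreated, DMSO and prieurianin cells on the log2(value + 16) scale. Of the genes tested, 0.711% were higher at 1 h than at 0 h by more than 2-fold in all 3 arms, a pattern chosen after seeing the values. Nfkbia peaked alongside by less: 1.80, 1.53 and 1.83 times its 0 h level at 0.5 h in the same order of arms. Cxcl1, Cxcl5 and Ccl2 stood at or near the scanner's ceiling at 0 h already, so a 2-fold rise at 1 h could not register for them.

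From 0 to 3 h (6 arrays) to 96 to 288 h (5 arrays), Il6 fell by 5.14 ± 0.69 (log2, SE of the fit) in untreated cells, a 35.2-fold fall (adjusted p = 6.54e-08, limma with Benjamini-Hochberg adjustment over all genes). It fell 27.9-fold in DMSO (adjusted p = 3.05e-07) and 17.9-fold in prieurianin (adjusted p = 6.52e-06; 10.2-fold without the 192 h arrays, adjusted p = 0.000137). The early window held the Il6 peak, so these folds include the decline from that peak. Against 0 h alone, the untreated log2 changes at 96, 144, 192, 240 and 288 h were -4.17, -5.04, -4.54, -3.54 and -2.3. In DMSO they were -4.25, -4.42, -2.95, -3.26 and -2.19. In prieurianin they were -3.51, -3.03, -5.82, -1.01 and 0.54, so its 288 h level was above that at 0 h. Late arrays were below every early one (2192 or more), except prieurianin at 288 h (3266). The times of an arm stand in for replicates here, and neighbouring times are not independent, so these p-values measure the spread between times.

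The neutrophil chemokines Cxcl1 and Cxcl5 started at the scanner's ceiling. Cxcl1 was saturated on all 18 arrays at 0 to 3 h. Its late intensities in untreated cells were 10442, 11045, 16306, 34192 and 60859 at 96, 144, 192, 240 and 288 h. The fall was at least 3.08-fold in untreated cells (adjusted p = 0.0285; lost without 96 or 144 h, at 0.0962 and 0.0896) and at least 5.31-fold in prieurianin (adjusted p = 0.00147), and did not pass in DMSO (log2 -1.45 ± 0.59, adjusted p = 0.0555; 0.000772 without the 192 h arrays). The arms share the spread of the fit. With only the prieurianin 192 h array left out, the DMSO change of Cxcl1 was still -1.45 and passed (adjusted p = 0.00111). Cxcl5 was saturated on 5 of 6 early untreated arrays, 4 of 6 in DMSO and 6 of 6 in prieurianin. Its late untreated intensities were 5101, 2427, 5673, 23217 and 40390, and those in DMSO 6336, 1810, 19949, 20393 and 37925. All late arrays were thus below all early ones. Cxcl5 fell at least 6.83-fold in untreated cells (adjusted p = 0.000988), at least 5.79-fold in DMSO (adjusted p = 0.00275) and at least 18.4-fold in prieurianin (adjusted p = 4.06e-06). Without 192 h the prieurianin fold was at least 7.92 and that of Cxcl1 at least 2.25.

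The monocyte chemokines Ccl2 and Ccl7 fell in all 3 arms. Ccl2 ran from 45676 to 65489 (median 63843) on the early untreated arrays and stood at 4788, 3784, 10903, 30890 and 43742 on the late ones. Saturation on 3, 2 and 2 of the 6 early arrays in untreated, DMSO and prieurianin cells makes its falls lower limits too. They were at least 4.95-fold in untreated cells (adjusted p = 0.00403), 4.37-fold in DMSO (adjusted p = 0.00872) and 9.87-fold in prieurianin (adjusted p = 9.19e-05; 4.59-fold without 192 h). Ccl7 ran from 15879 to 29100 early and was 3760, 2871, 5447, 8821 and 19229 late in untreated cells. Only the 288 h value reached the early range. Ccl7 fell by 1.82 ± 0.57, 1.63 ± 0.57 and 1.90 ± 0.57 in untreated, DMSO and prieurianin cells (adjusted p = 0.00948, 0.0222 and 0.00826). Without the 192 h arrays the prieurianin change of Ccl7 was -0.85 ± 0.43 and did not pass (adjusted p = 0.138). In DMSO, leaving out 144 h ended the calls of both genes (adjusted p = 0.0662 for Ccl2 and 0.12 for Ccl7), and leaving out 96 h that of Ccl7 (adjusted p = 0.0709).

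**Figure D1:**
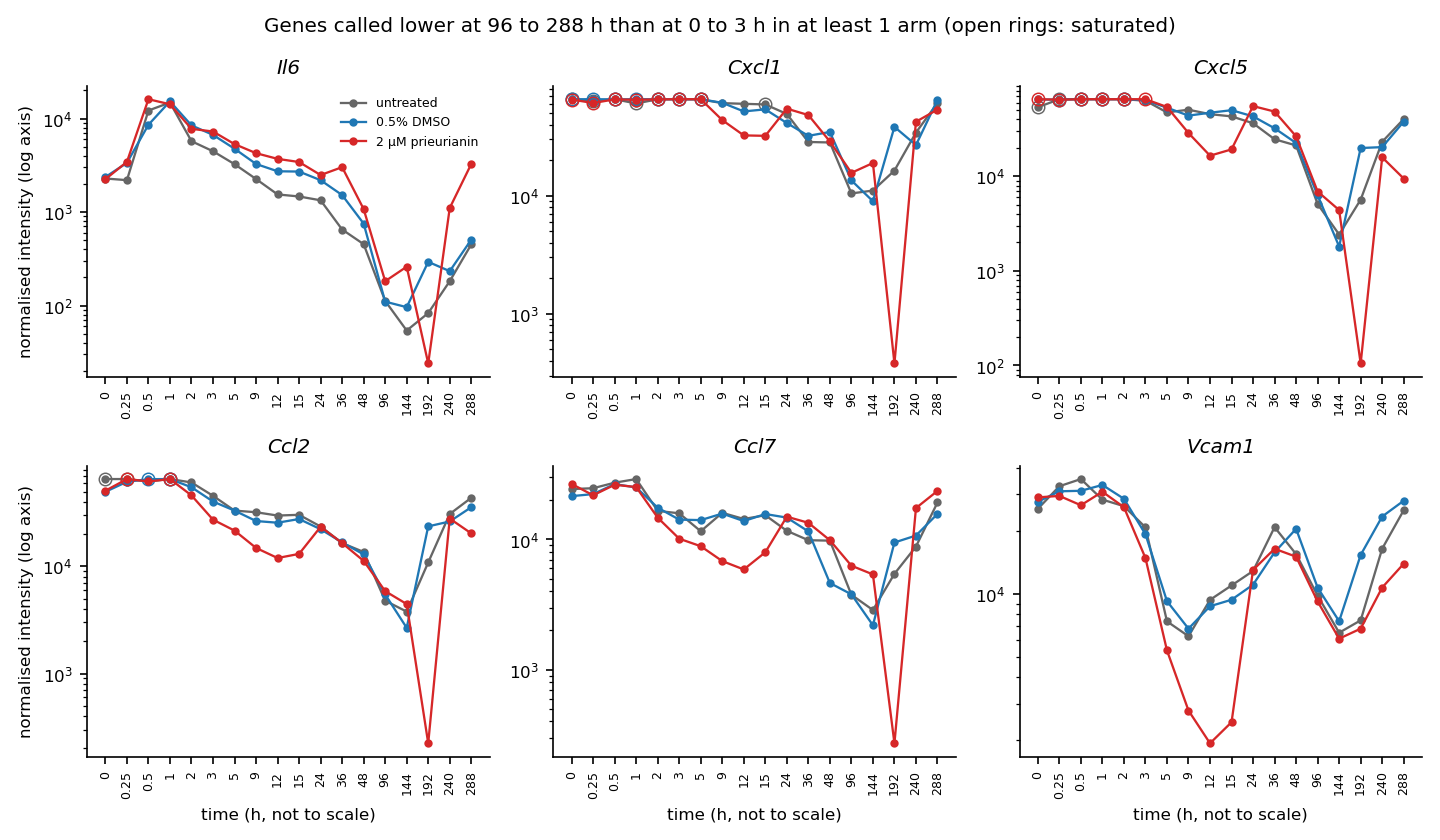
Normalised intensity (log axis, arbitrary units) of 6 genes at each of 18 times (not to scale), 1 array per point; grey, untreated; blue, 0.5% DMSO; red, 2 µM prieurianin; open rings mark saturated arrays. The low lay at 96 to 192 h for the first 5 genes and at 9 to 12 h for Vcam1; Ccl2 with prieurianin at 192 h was 223, against 23669 in DMSO and 10903 in untreated cells.

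Vcam1, a ligand for leukocyte integrins, had a 2-step course. Its brighter probe, used for the tests, read 25472, 6286, 20830, 6534 and 25079 at 0, 9, 36, 144 and 288 h in untreated cells. In DMSO the same times read 27521, 6831, 15803, 7410 and 27853. The level thus dipped early, recovered by 36 to 48 h, dipped again and returned to its start. Averaged over windows Vcam1 fell by 1.27 ± 0.41 in untreated cells (adjusted p = 0.0124; 0.0524 without 144 h) and 2.83-fold in prieurianin (adjusted p = 0.00397), and did not pass in DMSO (log2 -0.89 ± 0.41, adjusted p = 0.0934). The dimmer probe gave -0.82 ± 0.36 (adjusted p = 0.0729), -0.97 ± 0.36 (0.0348) and -1.46 ± 0.36 (0.0016) in untreated, DMSO and prieurianin cells. The probes thus differed in which control arm passed.

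Cxcl12, the stromal chemokine that binds CXCR4, showed an early dip and no net change by its brighter probe. In untreated cells it read 30890, 6594, 29100 and 44084 at 0, 15, 48 and 288 h. Its course was -0.00 ± 0.31, 0.15 ± 0.31 and 0.11 ± 0.31 in untreated, DMSO and prieurianin cells, none past the threshold. The second Cxcl12 probe disagreed: it fell by 1.11 ± 0.37 in untreated cells (adjusted p = 0.0177) and by 1.11 ± 0.37 in prieurianin (adjusted p = 0.0204). Its change in DMSO was -0.72 ± 0.37 (adjusted p = 0.142). The array annotation does not say which transcripts either probe reads.

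Nfkbia, Il1rn and Icam1 did not pass in any course. Nfkbia changed by -0.18 ± 0.20, -0.36 ± 0.20 and -0.21 ± 0.20, and Icam1 by -0.11 ± 0.18, -0.07 ± 0.18 and -0.12 ± 0.18 in untreated, DMSO and prieurianin cells. Icam1 lay near the filter, so changes of it were hardly measurable. Il1rn changed by 0.33 ± 0.53, 0.03 ± 0.53 and -0.27 ± 0.53 in the same order. At 0, 48 and 288 h it read 408, 2068 and 330 in untreated cells, and 383, 2532 and 406 in DMSO. The 48 h level was thus the highest of each arm, between the early and late windows that the course compares.

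Counted together, 6 of 10 members were called lower late than early in untreated cells, 4 in DMSO and 6 in prieurianin. Over all genes tested 17.3%, 16.1% and 15% were called lower in those arms. No member was called higher. The members were chosen with earlier results of these data known, so these counts describe them and do not test them as a set. The members' median change was -1.45, -1.17 and -1.70 (log2), against 0.01, -0.02 and 0.03 over all genes. Without 192 h the medians were -1.33, -1.25 and -1.01, with 6, 5 and 5 members called lower, so the order of the arms rests on 192 h. On all 6 arrays at 96 and 144 h, Il6, Cxcl1, Cxcl5, Ccl2, Ccl7 and Vcam1 were below all 18 arrays at 0 to 3 h, as were 7.92% of genes. The low did not last. On all 6 arrays at 240 and 288 h, Cxcl1, Cxcl5, Ccl2, Ccl7 and Vcam1 were above all 6 at 96 and 144 h, which 3.63% of genes were. Both patterns were chosen after the values were seen. The adipocyte marker mean in the control arms was 13.23 to 13.45 at 240 and 288 h, and the mean of 8 macrophage markers was 8.01 to 8.36 in all arms, against 7.14 to 7.68 at 96 and 144 h. Macrophage markers at 0 to 3 h were at 8.24 to 8.45, and 4 of the list's 12 genes (Adgre1, Ptprc, Tyrobp and Ctss) were below the filter. The part of other cell types in the late rise was not tested.

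**Figure D2:**
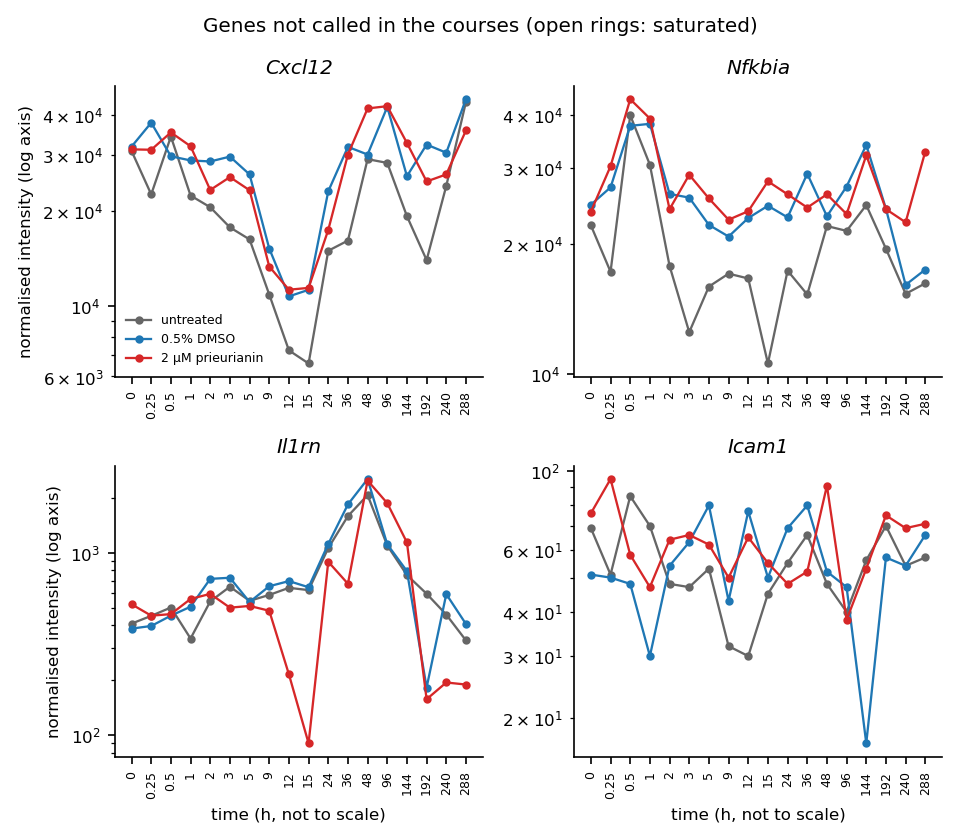
Normalised intensity (log axis, arbitrary units) of the 4 genes not called in any course by the tested probe, at 18 times (not to scale), 1 array per point, in untreated (grey), DMSO (blue) and prieurianin (red) cells. Il1rn with prieurianin was 215 at 12 h and 90 at 15 h, against 698 and 646 in DMSO, and Nfkbia in untreated cells was below both treated arms from 2 to 48 h.

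The same window contrast was read in genes around the members. Over 7 lists with 107 tested genes, 27.1%, 23.4% and 28% were called lower in untreated, DMSO and prieurianin cells, and 7.48%, 7.48% and 6.54% higher. Over all genes 17%, 16.5% and 15.3% were called higher, beside the shares called lower given above. Of 16 tested NF-kB subunits, kinases and inhibitors, 6 fell and 1 rose in untreated cells. Nfkbie (IkB-epsilon) fell by 1.64 ± 0.25, Nfkb1 (p105/p50) by 1.38 ± 0.21 and Relb by 1.19 ± 0.20, while Tnip1, an inhibitor, rose by 1.49 ± 0.33. The counts were 5 lower and 1 higher in DMSO, and 7 and 1 in prieurianin. The list of factors that govern decay of cytokine mRNA also held Dusp1, a MAP kinase phosphatase that is not itself a decay factor. Of its 7 tested genes, 5 fell in untreated cells, 4 in DMSO and 5 in prieurianin. Dusp1 fell by 2.56 ± 0.68, and Zfp36 (tristetraprolin), which speeds decay of AU-rich mRNAs, by 1.73 ± 0.51 in untreated cells. The list medians were -0.31 and -1.01 in untreated cells, against 0.01 over all genes.

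Of 26 tested receptors, ligands and adaptors of the IL-1, TNF and Toll-like pathways, 6 fell and 4 rose in untreated cells. Il1a fell by 1.91 ± 0.38 and Cd14, the lipopolysaccharide co-receptor, by 1.89 ± 0.35. Lbp (lipopolysaccharide-binding protein) rose by 2.52 ± 0.55 and Il1r2, the decoy receptor, by 1.74 ± 0.45. Of 15 tested IL-6 family genes 5 fell and none rose, among them Il11 by 1.92 ± 0.75 and the feedback inhibitors Socs3 by 1.61 ± 0.36 and Socs1 by 1.29 ± 0.23. Among 18 other tested chemokines, 5 fell and 1 rose. Cxcl2, a neutrophil chemokine, fell by 1.98 ± 0.63, Ccl11 (eotaxin) by 1.86 ± 0.26 and Cxcl10 by 1.73 ± 0.59. Il1a and Cxcl2 were dim, with mean log2 values of 6.65 and 6.83 against the filter at 6.07. Cxcl13, a B cell chemokine, rose by 6.15 ± 0.93, against the direction of the members. Of 13 tested adhesion genes 2 fell and 1 rose (Mcam, by 1.36 ± 0.36), and of 12 chemokine receptors 1 rose (Cxcr2, by 0.64 ± 0.16). The IL-1, TNF and Toll-like genes that rose and the adhesion genes that fell are shares near those over all genes.

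The next comparison set prieurianin against its solvent at matched times. At 0.25 to 3 h no member was called. Neither was any other gene (0% of those tested; 300 genes and 0 members had an unadjusted p under 0.05). At 5 to 48 h, Vcam1 was lower with prieurianin by 0.90 ± 0.21 (log2; adjusted p = 0.00399; lower at 5 of 7 times). Il1rn was lower by 0.93 ± 0.28 (adjusted p = 0.025; lower at 7 of 7). Among all genes 4.51% were called lower, and the members' median was -0.25 against -0.01 over all genes.

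Within this window both genes were at their lowest with prieurianin at 12 and 15 h. Vcam1 in prieurianin read 5379, 2779, 1939 and 2445 at 5, 9, 12 and 15 h, and 13019 at 24 h. DMSO read 9242, 6831, 8740, 9386 and 11073 at those times, and untreated cells 7402, 6286, 9373, 10979 and 12874. The prieurianin arm was thus below both controls from 5 to 15 h and above them at 24 h. The dimmer Vcam1 probe read 20 and 15 at 12 and 15 h in prieurianin, against 106 and 109 in DMSO and 65 and 54 in untreated cells. Over the window that probe gave -0.67 ± 0.24, which did not pass (adjusted p = 0.0705). Il1rn was 215 and 90 at 12 and 15 h with prieurianin, 698 and 646 in DMSO, and 641 and 623 in untreated cells. By 48 h it read 2484, 2532 and 2068. The Il1rn call was not made when 12, 15 or 36 h was left out (adjusted p = 0.115, 0.145 and 0.078), in values as deposited (0.0518) or with only the 2 arms fitted (0.0602). Under median centring in place of quantile normalisation neither gene passed (Vcam1 -0.74, adjusted p = 0.116; Il1rn -0.77, adjusted p = 0.128). With time left out of the fit the adjusted p-values were 0.215 and 0.359.

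Ccl2, Ccl7, Cxcl5 and Cxcl1 also read lower at 9 to 15 h, without passing the window test. Ccl2 was 14890, 11986 and 13099 at 9, 12 and 15 h with prieurianin, against 26555, 25600 and 27731 in DMSO. Ccl7 was 6821, 5883 and 7972 against 15803, 13837 and 15674, and Cxcl5 28756, 16554 and 19296 against 43924, 47118 and 50121. Cxcl1 was 43590, 32354 and 32081 against 61079, 51623 and 53752. At 24 h all 4 were level with or above DMSO, at 23456, 14957, 55399 and 54481 against 22255, 14718, 43110 and 41178. Ccl2, Cxcl5, Il1rn and Vcam1 were more than 2-fold below both controls at 12 and at 15 h, as were 1.19% of genes tested, a pattern chosen after the values were seen. Averaged over 5 to 48 h, the differences were -0.54 ± 0.45 for Ccl2, -0.39 ± 0.42 for Ccl7, -0.33 ± 0.51 for Cxcl5 and -0.17 ± 0.47 for Cxcl1. The spread of the fit is shared by all windows, so the 192 h arrays enter these errors. Without them Ccl2 was called lower (-0.54, adjusted p = 0.0163), and the other 3 were not.

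Il6 was not lower at these times. It read 4259, 3702 and 3424 at 9, 12 and 15 h with prieurianin, 3264, 2727 and 2708 in DMSO, and 2254, 1542 and 1466 in untreated cells. Prieurianin was the highest arm at every one of the 7 times from 5 to 48 h. Its difference from DMSO over that window was 0.43 ± 0.34 and did not pass (adjusted p = 0.472). Nfkbia differed from DMSO by 0.09 ± 0.13, Cxcl12 by -0.04 ± 0.12 and Icam1 by -0.07 ± 0.15, none past the threshold.

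**Figure D3:**
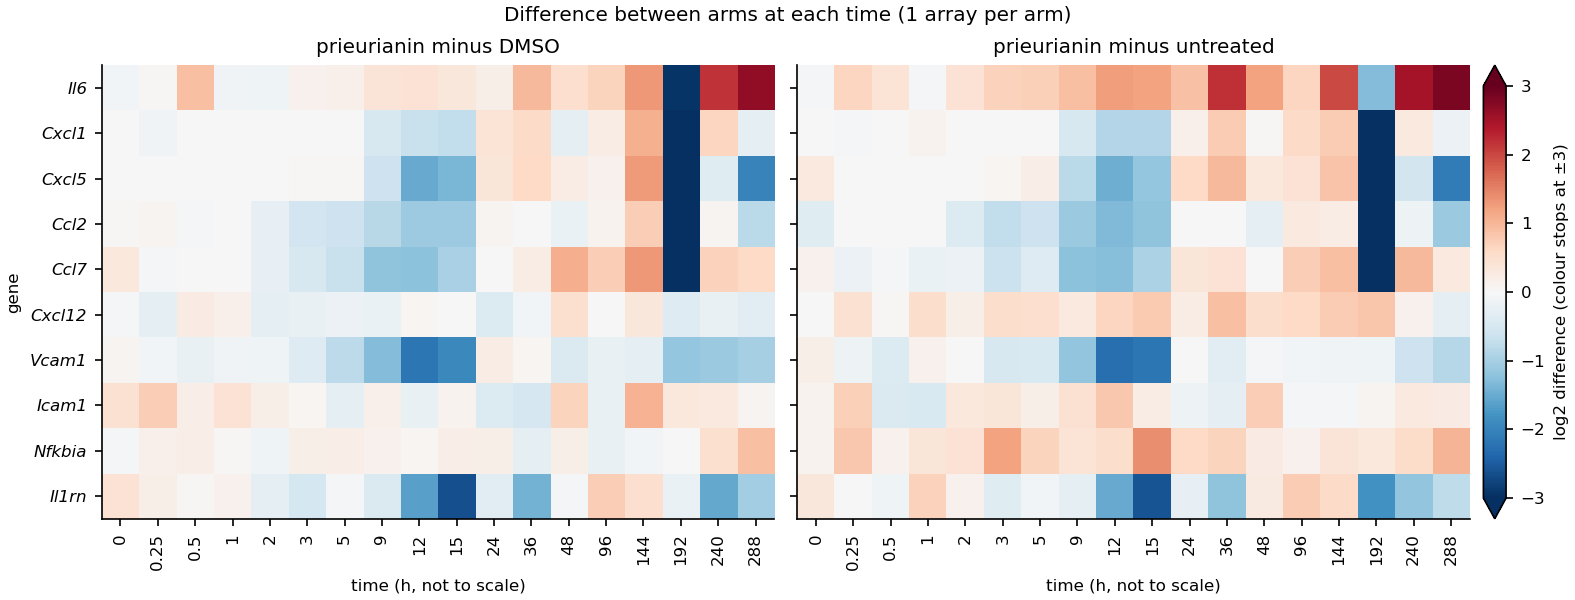
Log2 difference in normalised intensity at each time (columns, h, not to scale) for the 10 genes (rows), prieurianin minus DMSO (left) and prieurianin minus untreated (right), 1 array per arm; red is higher and blue lower with prieurianin, and colour stops at ±3. A blue block at 9 to 15 h spans the chemokines other than Cxcl12, with Vcam1 and, at 12 and 15 h, Il1rn. A dark column at 192 h spans Cxcl1, Cxcl5, Ccl2, Ccl7 and, against DMSO, Il6 (-2.95, and -1.31 against untreated cells). Il6 is red at 240 and 288 h.

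At 96 to 288 h the only member called between prieurianin and DMSO was Vcam1, lower by 0.76 ± 0.25 (adjusted p = 0.0317; lower at 5 of 5 times). It read 9211, 6121, 6831, 10733 and 13942 with prieurianin at 96, 144, 192, 240 and 288 h, against 10724, 7410, 15351, 23414 and 27853 in DMSO. The gap was at its widest from 192 h on. The dimmer Vcam1 probe gave -0.58 ± 0.28 and did not pass (adjusted p = 0.167). Of all genes 9.36% were called lower. The brighter probe did not pass when 192, 240 or 288 h was left out (adjusted p = 0.0801, 0.148 and 0.14), under median centring (adjusted p = 0.125) and in values as deposited (adjusted p = 0.0588).

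The 192 h arrays moved the late differences of Il6, Cxcl1, Cxcl5, Ccl2 and Ccl7. Those of Nfkbia (0.22 with and 0.28 without 192 h), Icam1 (0.30 and 0.30), Il1rn (-0.31 and -0.33) and Cxcl12 (brighter probe, -0.12 and -0.05) moved by less than their SE and did not pass. The second Cxcl12 probe differed from DMSO by -0.53 ± 0.20 over all late times and did not pass (adjusted p = 0.0703). On single arrays that probe was at -1.59 at 192 h and -1.51 at 288 h. With prieurianin at 192 h, Il6 read 24, Cxcl1 380, Cxcl5 105, Ccl2 223 and Ccl7 272. DMSO read 293, 38196, 19949, 23669 and 9476, and untreated cells 83, 16306, 5673, 10903 and 5447. These 5 were more than 2-fold below both controls on that array, as were 3.46% of genes. It was the same array whose adipocyte marker mean, 13.68, exceeded those of DMSO (13.04) and untreated cells (13.29) at 192 h. Its macrophage marker mean, 7.04, was the lowest of all arrays. So were its log2 values of Csf1r (4.99), a dim gene of that list, and of Cd14 (8.11), which is outside that list. The Csf1r value lay below 6.07, the filter on gene means, and both genes were named after their values were seen. Whether the sample, the label or the cells differ was not tested. With all 5 times, the prieurianin differences from DMSO were -1.67 ± 0.60 for Cxcl5, -1.30 ± 0.53 for Ccl2, -0.98 ± 0.56 for Cxcl1, -0.35 ± 0.50 for Ccl7 and 0.77 ± 0.40 for Il6, none past the threshold. Leaving out 96 or 144 h, which gives 192 h more weight, brought Cxcl5 past it (adjusted p = 0.0269 and 0.00931), and leaving out 144 h brought Ccl2 past it (0.0315).

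Without the 192 h arrays the late differences from DMSO changed sign for Ccl7, Cxcl1 and Ccl2, the last to near no difference. Il6 was above DMSO with all late times too (0.77). Without 192 h Il6 was higher with prieurianin by 1.70 ± 0.24, a 3.24-fold difference (adjusted p = 2.61e-06), and Ccl7 by 0.83 ± 0.25 (adjusted p = 0.0129). Cxcl1 was at 0.42 ± 0.19, Ccl2 at 0.03 ± 0.20 and Cxcl5 at -0.24 ± 0.35, and these did not pass. With only the prieurianin 192 h array left out, Il6 was higher by 1.56, Ccl7 by 0.74 (adjusted p = 0.0252), and Vcam1 was still called lower. Il6 read 182, 260, 1104 and 3266 at 96, 144, 240 and 288 h in prieurianin, against 110, 96, 233 and 506 in DMSO and 112, 54, 182 and 450 in untreated cells. The prieurianin value was the highest at each of these times. At 240 and 288 h Il6 was more than 2-fold above both controls, as were 1.99% of genes, and Ccl7 read 17424 and 23591 against 10714 and 15710 in DMSO. In the late arrays without 192 h, 10 of 10 adipocyte markers were called lower with prieurianin than in DMSO, with a median of -2.03. Over the 10 members the median was 0.15 without 192 h and -0.33 with it. Without 192 h, 11.9% of all genes were called higher and 13.8% lower.

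**Figure D4:**
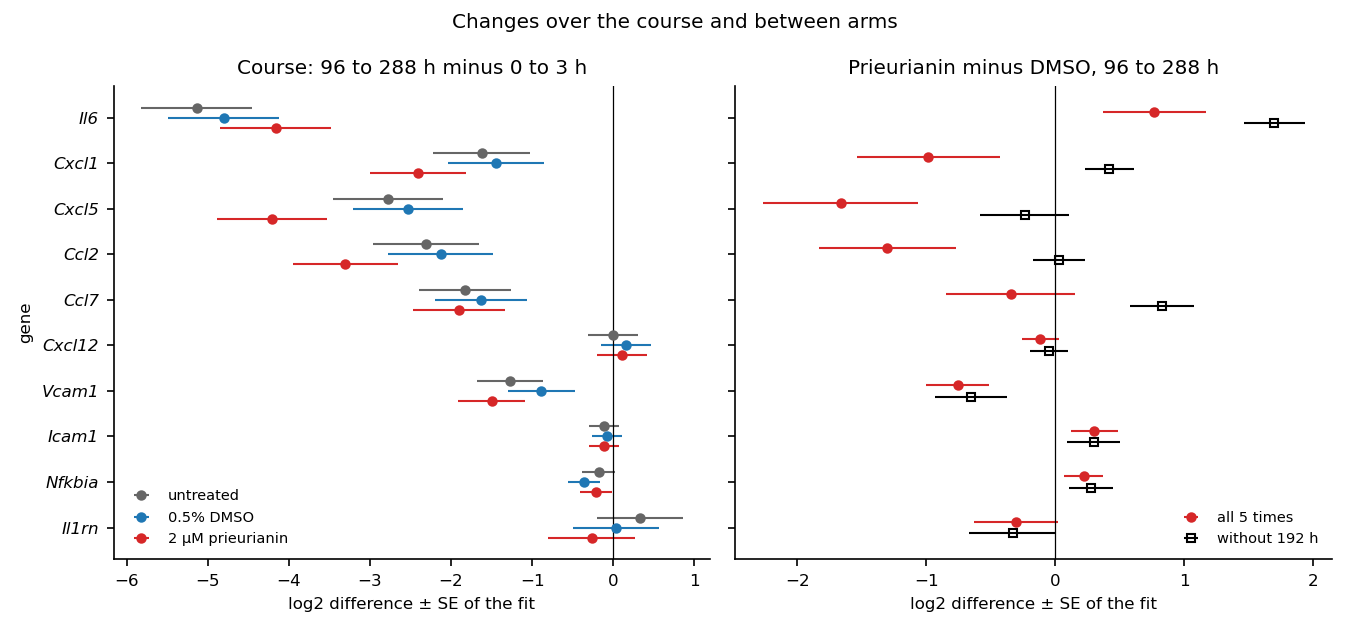
Left, log2 change from 0 to 3 h to 96 to 288 h (± SE of the fit) for each gene in untreated (grey), DMSO (blue) and prieurianin (red) cells; those of Cxcl1, Cxcl5 and Ccl2 are lower limits. Right, log2 difference of prieurianin minus DMSO at 96 to 288 h over all 5 times (red circles) and without 192 h (black squares): Il6 moved from 0.77 to 1.70 and Ccl7 from -0.35 to 0.83.

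Whether the fall over the course itself differed between prieurianin and DMSO was tested in the course fit, which held no time factor. The arms were thus not matched by time there, and the spread between times entered the errors. No member was called (43 of the genes tested, 0.336%, were, and 0 members had an unadjusted p under 0.05). The differences ran from -1.67 ± 0.96 for Cxcl5, saturated early in both arms, to 0.64 ± 0.97 for Il6, with a median of -0.29 over the members and 0.02 over all genes. Without 192 h the Il6 difference was 1.57 ± 0.94 and that of Cxcl5 -0.25 ± 0.73. The errors of Cxcl5 and Il6 are near 1 log2 unit, so this test could miss differences well above 2-fold for them. The Il6 difference without 192 h, 2.97-fold, did not pass (adjusted p = 0.436). At matched times the late Il6 difference without 192 h had a smaller error, at 1.70 ± 0.24.

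Genes around the members were compared between prieurianin and DMSO in the same way. At 5 to 48 h, 9.35% of the 107 genes were called higher and 3.74% lower, against 6.62% and 4.51% over all genes, so the lists as a whole lay near the background. Irak2, a kinase downstream of the IL-1 and Toll-like receptors, was higher by 2.42 ± 0.19 (adjusted p = 1.46e-10), and Tnfrsf1b, a TNF receptor, by 0.81 ± 0.19. In that list 2 genes were higher and 1 lower (Il18, by 0.54 ± 0.11). Of the NF-kB list 1 gene was called, Tnfaip3 (A20, an inhibitor), higher by 0.64 ± 0.17. Socs1 was lower by 0.74 ± 0.15 among 2 lower and 1 higher IL-6 family genes. Other chemokines showed 3 higher and 0 lower (Ccl9 by 1.04 ± 0.31, Ppbp by 1.02 ± 0.20 and Cxcl2 by 0.57 ± 0.15). Of the adhesion list Mcam and Ncam1 were higher, by 1.24 ± 0.24 and 0.60 ± 0.14, and Itgb7 was lower by 0.32 ± 0.10. The list medians lay between -0.12 and 0.06, against -0.01 over all genes.

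At 96 to 288 h the shares were 6.54% higher and 7.48% lower, against 7.32% and 9.36% over all genes. Irak2 was higher by 1.03 ± 0.22, Il1a by 0.80 ± 0.24 and Il1rap, a subunit of the IL-1 receptor, by 0.83 ± 0.28, while Lbp was lower by 0.96 ± 0.31, in a list with 3 higher and 3 lower. Among the other chemokines Ppbp was higher by 0.84 ± 0.24, and Pf4, Cxcl13 and Cx3cl1 were lower by 1.66 ± 0.35, 1.51 ± 0.39 and 0.71 ± 0.15. Pf4 and Il1a were dim, with mean log2 values of 6.27 and 6.65 against the filter at 6.07. Dusp1 was higher by 1.00 ± 0.21. Nfkbiz was lower by 0.46 ± 0.15, the only NF-kB list gene called. Without 192 h the differences were 1.26 for Irak2, 1.16 for Il1a, 1.09 for Il1rap, 1.08 for Ppbp, -1.35 for Pf4, -2.11 for Cxcl13, -0.47 for Cx3cl1 and 0.78 for Dusp1. Lbp (-0.44, adjusted p = 0.143) and Nfkbiz (-0.15, adjusted p = 0.335) then did not pass. In that fit, 4 IL-6 family genes were higher and 0 lower, Socs3 by 0.99 ± 0.13 (adjusted p = 1.53e-06). Ccl9 was then higher by 1.44 ± 0.23, Il33, an alarmin, by 1.73 ± 0.33, and Jam2, an adhesion molecule, by 1.17 ± 0.17.

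Prieurianin was also set against untreated cells, a comparison that shares its arrays with the one above and includes any effect of the solvent. At 5 to 48 h Il6 was higher with prieurianin by 1.20 ± 0.34 (adjusted p = 0.0071; higher at 7 of 7 times). Nfkbia was higher by 0.65 ± 0.13 and Cxcl12 by 0.55 ± 0.12 (adjusted p = 0.000235 and 0.000797; both at 7 of 7). Vcam1 was lower by 0.92 ± 0.21 (adjusted p = 0.00105) and Il1rn by 0.81 ± 0.28 (adjusted p = 0.0269), each at 6 of 7 times. Il1rn did not pass when 12, 15 or 36 h was left out (adjusted p = 0.103, 0.176 and 0.0744), and Ccl2 was called lower without the 192 h arrays (-0.65, adjusted p = 0.0016). Background calls were 13% higher and 15.5% lower. The DMSO arm alone was above untreated cells for Cxcl12 by 0.59 ± 0.12 (adjusted p = 0.000627) and Nfkbia by 0.55 ± 0.13 (adjusted p = 0.00191), both at 7 of 7 times, with 9.47% of genes called higher. For Il6 the DMSO difference was 0.77 ± 0.34 (adjusted p = 0.104; higher at 7 of 7), and without 192 h it passed (adjusted p = 0.00215). So Cxcl12 and Nfkbia were about as far above untreated cells in DMSO as in prieurianin. Under median centring neither passed in DMSO (0.30 and 0.25, adjusted p = 0.187 and 0.235), and the second Cxcl12 probe gave -0.19 ± 0.17 and -0.08 ± 0.17 in DMSO and prieurianin. The dimmer Vcam1 probe was higher in DMSO than in untreated cells by 0.73 ± 0.24 (adjusted p = 0.0275), which the brighter one (-0.01 ± 0.21) was not. For prieurianin against untreated cells the dimmer probe gave 0.06 ± 0.24 (adjusted p = 0.888), so the lower window average of Vcam1 was not seen with it. At 12 and 15 h that probe was at -1.19 and -1.19, but it was higher with prieurianin at 9, 24, 36 and 48 h.

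In the early window Nfkbia was higher with prieurianin than in untreated cells by 0.59 ± 0.15 (adjusted p = 0.0137; 5 of 5 times), beside 4.16% of genes. The DMSO difference, 0.50 ± 0.15, did not pass (adjusted p = 0.0594; 0.0149 without 0.5 h), and no member was called there (3.54% of genes in either direction, 2 members with an unadjusted p under 0.05). In single arrays at 3 h Nfkbia read 12488 in untreated cells, 25654 in DMSO and 28992 in prieurianin. The early Nfkbia call was lost in values as deposited (adjusted p = 0.0516), when only the 2 arms were fitted (adjusted p = 0.0635), and without 0.25 or 3 h (adjusted p = 0.0953 and 0.185).

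At 96 to 288 h Il6 was higher with prieurianin than in untreated cells by 1.32 ± 0.40 (adjusted p = 0.015; higher at 4 of 5 times), Nfkbia by 0.48 ± 0.15 (adjusted p = 0.0199; 5 of 5) and Cxcl12 by 0.40 ± 0.14 (adjusted p = 0.0432; 4 of 5), beside 11.4% of genes. Without 192 h the values were 1.98 ± 0.24, 0.52 ± 0.17 and 0.30 ± 0.15, the last not past the threshold (adjusted p = 0.148), and Ccl7 was called higher by 0.73 ± 0.25 (adjusted p = 0.0257). Over the other times Il6 did not pass when 144, 240 or 288 h was dropped (adjusted p = 0.0775, 0.113 and 0.118), nor Nfkbia when 240 or 288 h was (0.0707 and 0.14), nor Cxcl12 when 96, 144 or 240 h was (0.141, 0.194 and 0.0529). Cxcl12 also missed the threshold when 1, 2, 5 or 12 h was dropped, with its value unchanged (0.0501, 0.0522, 0.0534 and 0.0526). Between DMSO and untreated cells Cxcl12 was the only member called, higher by 0.52 ± 0.14 (adjusted p = 0.0365), beside 3.14% of genes. It did not pass when 96, 144, 192 or 240 h was dropped (adjusted p = 0.117, 0.0946, 0.255 and 0.0997). The second Cxcl12 probe gave -0.22 ± 0.20 for prieurianin (adjusted p = 0.477) and 0.30 ± 0.20 for DMSO (adjusted p = 0.538) against untreated cells, neither past the threshold.

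**Figure D5:**
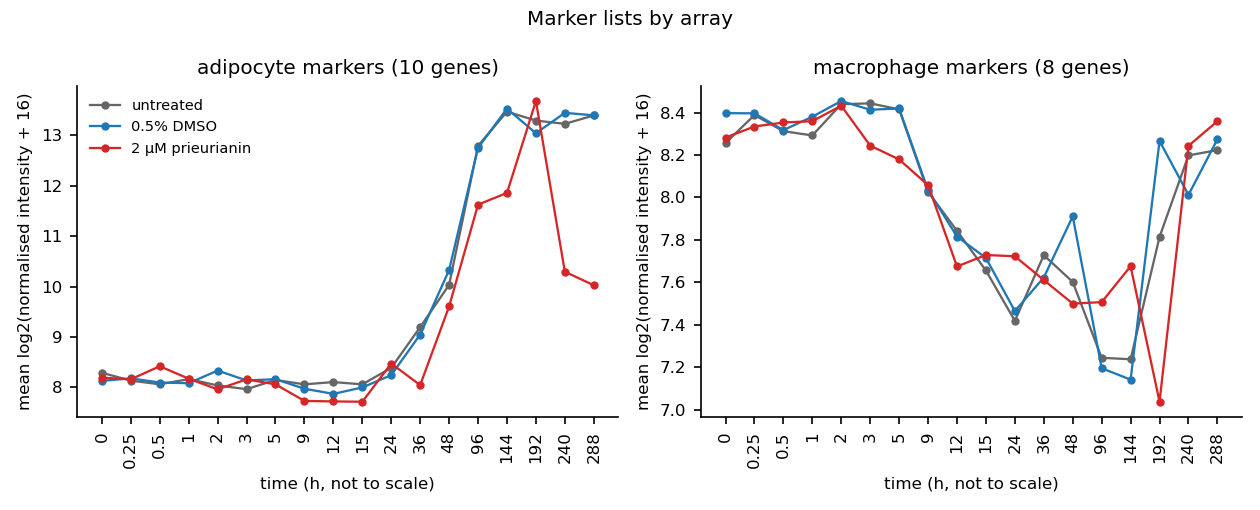
Mean log2(normalised intensity + 16) of 10 adipocyte markers (left) and 8 macrophage markers (right) on each array over 18 times (h, not to scale), for untreated (grey), DMSO (blue) and prieurianin (red) cells. Prieurianin at 192 h is the highest adipocyte point (13.68) and the lowest macrophage point (7.04).

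Among the members, the 4 chemokines other than Cxcl12 followed each other most closely over the 54 arrays. Pearson's r, given as a description since arrays share time and arm, was 0.95 between Cxcl1 and Cxcl5, 0.95 between Ccl2 and Ccl7, and 0.93 between Cxcl1 and Ccl2. Without 192 h these were 0.93, 0.92 and 0.91. The 3 genes closest to Il6 were Hs6st2 (0.94), Prrx1 (0.92) and Mmp3 (0.91), none of them a member. Among members, r of Il6 was 0.81 with Cxcl5, 0.76 with Cxcl1, 0.76 with Ccl2 and 0.75 with Ccl7 (0.80, 0.82, 0.75 and 0.72 without 192 h). Those closest to Cxcl5 were Cxcl1, Ccl2 and Cd14 (0.91), and Ccl2 was followed by Ccl7, Rab32 (0.94) and Cxcl5. Ccl7 was nearest to 1700113H08Rik (0.95), Ccl2 and Ccn5 (0.93). Vcam1 followed Npy1r (0.91), Gypc (0.91) and Sema3f (0.88), and its r with Il6 was 0.30. Cxcl12 followed Cby2 (0.92), Ms4a4d (0.86) and Atl1 (0.84). For Icam1, Nfkbia and Il1rn no gene exceeded 0.76: the closest were Adam3 (0.73), Olfr419 (0.72) and Ly9 (0.65), then Mtmr6 (0.75), Kdm3b (0.74) and Chmp2b (0.74), then Capn6 (0.76), Rpl28 (0.76) and 1700048O20Rik (0.75).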

How the data were processed

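RNA of 3T3-L1 cells was labelled with Cy5 and hybridised to single-colour Phalanx Mouse OneArray chips, per the labels. The authors deposited 1 intensity per probe and array, on what the values show to be a linear scale; the scaling and background steps of the authors are not given in the sources used here. Symbols came from the platform annotation, and those of 3410 probes were updated to current names through RefSeq synonyms. Intensities were quantile normalised, raised to 0 where negative, and converted to log2(value + 16); a probe within 50 units of its array's maximum was called saturated. Each gene was tested through its brightest probe if its mean passed 6.07, the lower quartile, which left 12792 genes.

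Fits used limma 3.58.1 in R 4.3.3. Comparisons between arms took 51 arrays with time as a factor (28 residual degrees of freedom) and 3 windows: 0.25 to 3, 5 to 48 and 96 to 288 h (5, 7 and 5 times). Courses were fitted on 54 arrays, each arm's window having its own mean (45 residual degrees of freedom). Calls have a Benjamini-Hochberg adjusted p under 0.05 over all genes. With 1 array per arm and time, times stand in for replicates, and their number limits the precision. The fit between arms was tested on simulated data with independent noise, only for prieurianin against DMSO at 5 to 48 h. The course fits were not tested in this way.

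The members, gene lists and patterns were chosen with earlier results of these data known. Named genes are the members, at most 4 called genes per list and comparison with the largest differences, and the 3 best correlated genes per member. Cd14 and Csf1r at 192 h were named after their values were seen. Alternatives were median centring, values as deposited, other pseudocounts and filters, every probe, no time factor, only the arms compared, and leaving out each time.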

Additional observations from a re-analysis of the deposited data

Results flagged for a closer look

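At each time the prieurianin array was set against DMSO and against untreated cells, and within each window the time farthest from the others was compared with Dixon's 95% limit. Of 52 such sets (10 genes; 8 sets with saturated arrays were left out), 12 held a time beyond the limit; chance gives about 1 in 20, and the sets share arrays. At 192 h there were 6: Ccl2 at -6.63 and -5.51 (log2, against DMSO and untreated cells), Ccl7 at -5.04 and -4.24, and Cxcl1 at -6.59 and -5.37. At the other 4 late times the same differences ran from -0.81 to 0.73 and -1.10 to 0.30 for Ccl2, from 0.59 to 1.29 and 0.29 to 0.98 for Ccl7, and from -0.27 to 1.07 and -0.19 to 0.77 for Cxcl1.

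The other 6 were smaller. Il6 stood out at 36 h, at 0.98 against DMSO (other times 0.16 to 0.51) and 2.19 against untreated cells (0.71 to 1.25), and at 0.5 h, at 0.91 against DMSO (-0.12 to 0.12). Nfkbia was at -0.26 against DMSO at 36 h (0.05 to 0.20) and at 1.40 against untreated cells at 15 h (0.24 to 0.68). Ccl7 was at -0.65 against untreated cells at 3 h (-0.20 to -0.05).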

How the results depend on the processing

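Of 3497 member values under the alternatives, 3392 kept direction and side of the threshold, 74 lost a call, 27 gained one and 4 turned direction (counted where either value was called). All 4 were Ccl7 at 96 to 288 h with prieurianin: 0.8264 against DMSO and 0.7298 against untreated cells without 192 h, and 0.737 and 0.8192 without the prieurianin 192 h array alone (range over left-out times -0.7564 to 0.8264 and -0.5762 to 0.7298). Member calls in courses (6, 4 and 6) and in the patterns over single arrays kept their counts within 1.5 times under each alternative but one, leaving out 144 h in DMSO; the pattern alternatives were chosen after seeing the data. Between arms the calls depended on the fit. Time was the replicate block of the main fit, since same-time arrays share a time but no stated culture; with no replicate block the member calls at 0.25 to 3, 5 to 48 and 96 to 288 h were 0 (from 0), 0 (from 2) and 0 (from 1) against DMSO, 0 (from 1), 1 (from 5) and 0 (from 3) for prieurianin against untreated cells, and 1 (from 2) and 0 (from 1) for DMSO against untreated cells in the last 2 windows. Median centring gave 0 and 0 against DMSO at 5 to 48 and 96 to 288 h, 1 for prieurianin against untreated cells late, and 0 and 0 for DMSO against untreated cells. Values as deposited gave 1 and 0 against DMSO, 0 early and 1 late for prieurianin against untreated cells, and 0 for DMSO late. Fitting only the 2 arms gave 1 and 0, 0 and 1, and 0 for the same 5. Genes above the median level gave 2 against DMSO late and 1 for DMSO against untreated cells early. Without the prieurianin 192 h array alone, 3 were called against DMSO late. Leaving out each time gave 1 to 3 calls (prieurianin against DMSO, 5 to 48 h), 0 to 3 (96 to 288 h), 0 to 1 and 0 to 4 (prieurianin against untreated cells, early and late), 0 to 2 and 0 to 1 (DMSO against untreated cells, early and late) and 2 to 6 (course in DMSO). Over all genes, the calls against DMSO at 5 to 48 h were 1424 and fell to 581 under median centring, 647 as deposited and 411 with no block; late they were 2133, then 810, 1379 and 657, and 3407 without the prieurianin 192 h array. Prieurianin against untreated cells gave 759 early (202, 308, 280 and, with 2 arms, 370), 3642 at 5 to 48 h (2297 under median centring, 1962 with no block) and 2811 late (1327 and 1227). DMSO against untreated cells gave 453 early (155, 111, 188), 2596 at 5 to 48 h (1366 with no block) and 467 late (32, 17, 125). Median centring also moved the split of DMSO against untreated cells at 5 to 48 h from 1212 higher and 1384 lower to 539 and 2227, with a median of -0.18 over all genes. The causes were not tested. Saturation hides changes of Cxcl1 and Cxcl5 at 0 to 3 h, and dim signal those of Icam1.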
